A study of Mus musculus with 18 samples.

Results

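Cells with an intermediate FoxA2 signal (ΔHx Mid) were set against cells with no FoxA2 signal (ΔHx Neg), both sorted from mouse embryos at embryonic day 7.5, during gastrulation. All embryos used for these libraries were homozygous for FoxA2ΔHx-tagRFP, a knock-in allele in which FoxA2 lacks 10 amino acids of an α-helix and carries the red fluorescent protein tagRFP behind a flexible linker. The 6 libraries, 3 of ΔHx Mid and 3 of ΔHx Neg, were taken by their labels from 18 in the series, and no measured value entered that choice. The other 12 come from the ΔHx High gate and from the Mid, Neg and High gates of embryos homozygous for FoxA2WT-tagRFP, the same fusion with the helix intact (WT). Both alleles were made in embryonic stem cells and kept on a mix of the C57Bl6/J and CD-1 backgrounds, and embryos came from superovulated dams and were not sexed. The Neg gate held cells without signal, the Mid gate ran from above autofluorescence to the brightest heterozygous cells, and the High gate lay above those. About 10 embryos, with the extra-embryonic portion cut away for genotyping, were pooled for a sort, so a library stands for a pool and not for an animal. RNA came from 2500 to 5000 cells, and the equivalent of 1000 cells entered a SMART-Seq2 library, a full-length cDNA method for small inputs that does not record strand. The allele itself cannot be checked in these files, since a gene's read count does not show a deletion of that size.

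FoxA2 is a forkhead transcription factor, called a pioneer factor because it binds its DNA motif in nucleosomes. In the gastrulating mouse it is made in the visceral endoderm, an epithelium around the embryo that takes up maternal nutrients and secretes serum proteins, and in the anterior streak, from which definitive endoderm, node and notochord arise. Cells without it at this stage include the epiblast, most of the streak and the lateral and extra-embryonic mesoderm that gives rise to heart, allantois, first blood and vessels.

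Libraries held 13742922 to 16008636 reads in genes. Rn45s, a ribosomal RNA precursor, took 30.3% to 43.0% of them in ΔHx Mid and 27.9% to 30.1% in ΔHx Neg. ΔHx Mid replicate 3 stood apart from the other ΔHx Mid libraries: the chi-square per degree of freedom between it and them was 22.5 and 55.9, against 15.5 between replicates 1 and 2, and 4.93 to 6.88 among ΔHx Neg libraries. The labels call the samples biological replicates without saying which embryos each pool held. Values are normalised read counts, given for replicates 1, 2 and 3 in that order. Changes are on the log2(value + 1) scale with their SE, from limma over all 18 libraries, with adjusted p-values from Benjamini-Hochberg over all genes tested. The spread behind each SE is shared over all 18 libraries, so scatter in the ΔHx High and WT libraries enters it. The scale understates the changes of low genes. In bulk libraries, fewer cells of a type and less RNA per cell cannot be told apart.

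The sort itself was visible in Foxa2, which is a check of the gates and not a finding. It had 547, 611 and 1229 in ΔHx Mid, against 62.5, 55.1 and 43.4 in ΔHx Neg, and ΔHx High stood above both with 1848, 2078 and 2385. Replicate 3 was the highest of the ΔHx Mid libraries for Foxa2, and the gates did not overlap. Its close relatives moved with it: Foxa1 had 260, 247 and 376 in ΔHx Mid, against 21.2, 12.1 and 6.19 in ΔHx Neg, and Foxa3 had 277, 354 and 396 against 22.3, 49.5 and 26.8. The log2 changes were 4.50 ± 0.53 for Foxa1 (adjusted p = 3.3e-06) and 3.41 ± 0.31 for Foxa3 (adjusted p = 1.1e-07).

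Of 24498 genes in the table, 14711 were tested. At an adjusted p under 0.05, 2632 genes were higher in ΔHx Mid, 17.9% of those tested, and 2421 were lower, 16.5%. Together they made 34.3%, the share against which the counts of the gene lists below are to be read. The rises were larger than the falls: 310 genes were higher by over 3 on the log2 scale and 93 were lower by as much, and the median change was 1.15 among the called rises and -0.60 among the called falls. Against a limit of 2-fold change in place of no change, 465 genes (3.16%) were higher and 84 (0.571%) were lower. In 50.6% of genes tested the libraries of both gates did not overlap, so separation alone sets no gene apart. The median over all genes tested was -0.0029.

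**Figure D1:**
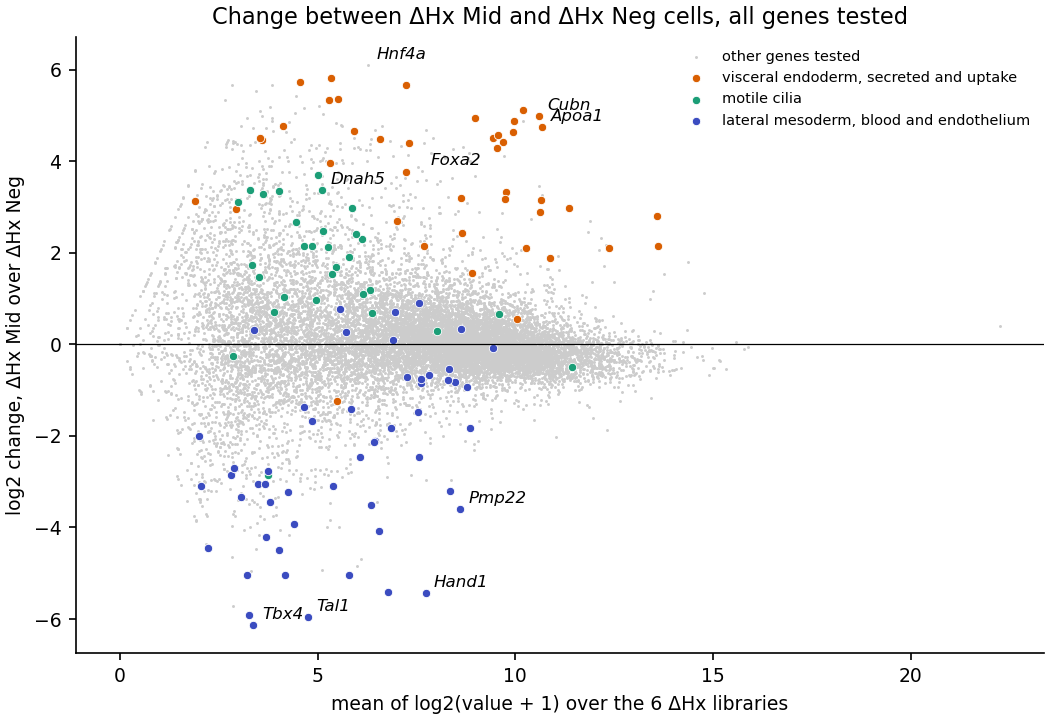
Change of each of the 14711 genes tested, on the log2(value + 1) scale (y axis), against its mean log2 level over the 6 ΔHx libraries (x axis). Visceral endoderm genes (orange) lie high over the whole range of levels, save Lrp2 and Fabp3, motile cilia genes (green) mostly between 0 and 4, and genes of lateral mesoderm, blood and endothelium (blue) mostly below 0.

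The 20 tested genes for secreted proteins of the visceral endoderm all rose in ΔHx Mid, with a median log2 change of 4.58, and all 20 also passed the 2-fold limit. Apolipoprotein B, the structural protein of lipoprotein particles, had 6501, 6783 and 7410 reads of Apob in ΔHx Mid, against 77.0, 272 and 373 in ΔHx Neg (log2 5.11 ± 0.45, adjusted p = 9.9e-08). Alpha-fetoprotein, the main serum protein of the early embryo, had 3059, 3337 and 3529 reads of Afp in ΔHx Mid, against 81.5, 195 and 192 in ΔHx Neg (log2 4.50 ± 0.47). ΔHx Neg replicate 1 was the lowest library for both genes, and the ΔHx Mid libraries lay close together. Ttr and Rbp4, which carry thyroid hormone and retinol, rose by 4.87 and 4.64, and Trf, the iron carrier transferrin, by 4.41. Apoa4, another lipoprotein component, had 970, 1058 and 1210 in ΔHx Mid, against 5.58, 36.4 and 38.2 in ΔHx Neg. The smallest rises of the list were those of Tcn2, a vitamin B12 carrier, with 2.43, and of Ctsz, a lysosomal protease, with 1.87. Alb and Apoh were listed without a read in all 6 libraries.

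Proximal promoters of these genes are shown because the sorted factor is a forkhead protein and its family's core motif, TGTTTAC, can be read from the sequence. RefSeq promoter windows (GRCm38.p6, from 250 bases before to 50 after a gene's start) were found for 38 genes of both visceral endoderm lists, 46 windows in all. The letters TGTTTAC, on either strand, stood in 6 of those 46 windows, 13.0%, and in 1199 of all 32851 windows, 3.65%. They stood in none of the 31 windows of the lateral mesoderm list, the 30 of the blood and endothelium list or the 24 of the Hox list, and in none of the 27 of the epithelial list, the 24 of the lysosome list or the 22 of the node list, in which more genes rose than fell. They stood in 3 of 16 windows of the endoderm transcription factor list, and in 2 of 10 of the germ cell list, in which no gene rose. The S phase list, in which no gene rose either, had them in 2 of 22 windows. The trophoblast list and the list of cell cycle inhibitors and regulators each had them in 2 of 18. Taken apart, the secreted visceral endoderm list had them in 4 of 23 windows and the uptake list in 2 of 23. CAAAGTC, a core of the HNF4 motif with other letters than the forkhead motif, searched on both strands too, stood in 2 of the 46 windows (4.35%) and in 4.44% of all windows. These are counts of letters in a short window and were not tested, and distal enhancers lie outside it. The 4 windows below are from genes that rose, with the forkhead letters or their complement in capitals.
Apoa2, chr1:171224804-171225103, plus strand: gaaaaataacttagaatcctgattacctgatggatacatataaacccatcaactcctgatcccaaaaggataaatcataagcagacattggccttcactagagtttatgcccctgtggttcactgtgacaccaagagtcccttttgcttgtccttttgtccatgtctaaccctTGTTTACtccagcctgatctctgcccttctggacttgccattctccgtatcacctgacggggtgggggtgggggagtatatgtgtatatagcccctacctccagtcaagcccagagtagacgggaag
Cpn1, chr19:43986471-43986770, minus strand: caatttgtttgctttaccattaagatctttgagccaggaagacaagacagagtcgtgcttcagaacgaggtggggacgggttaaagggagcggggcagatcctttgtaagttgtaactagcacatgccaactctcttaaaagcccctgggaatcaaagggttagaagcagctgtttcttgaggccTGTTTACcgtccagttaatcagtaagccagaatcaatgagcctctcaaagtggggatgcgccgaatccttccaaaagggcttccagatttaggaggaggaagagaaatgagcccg
S100g, chrX:162964550-162964849, minus strand: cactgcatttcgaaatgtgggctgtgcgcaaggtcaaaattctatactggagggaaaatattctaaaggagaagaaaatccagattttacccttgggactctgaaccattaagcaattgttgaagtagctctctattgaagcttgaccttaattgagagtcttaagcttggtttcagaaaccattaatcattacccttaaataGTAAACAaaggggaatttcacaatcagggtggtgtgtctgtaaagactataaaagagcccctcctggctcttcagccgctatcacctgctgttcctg
Rbp4, chr19:38125272-38125571, minus strand: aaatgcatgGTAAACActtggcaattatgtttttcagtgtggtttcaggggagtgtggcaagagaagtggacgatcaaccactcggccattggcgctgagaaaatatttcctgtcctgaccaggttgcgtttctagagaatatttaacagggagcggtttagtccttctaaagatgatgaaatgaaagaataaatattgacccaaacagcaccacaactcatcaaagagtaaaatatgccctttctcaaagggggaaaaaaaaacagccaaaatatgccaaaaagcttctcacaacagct
In Apoa2, Cpn1 and S100g the capitals begin 77, 65 and 47 bases before the start, and in Rbp4 241 bases before it. The same letters also stand in the window of Apoh, the gene without a read in either gate, and in that of Apoe. Apoa2, a lipoprotein component, had 77.2, 54.6 and 41.1 in ΔHx Mid, against 3.35, 0.933 and 1.03 in ΔHx Neg. Cpn1, a carboxypeptidase of plasma, had 512, 397 and 444 against 11.2, 28.0 and 21.7, and S100g, a calcium-binding protein of absorptive epithelia, had 361, 399 and 189 against 6.70, 11.2 and 17.6. Both gates were clear of each other for all 3 genes.

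The uptake side of the same tissue followed. Of 22 tested genes of the uptake list, 20 rose and none fell, with a median of 3.14, and 17 passed the 2-fold limit. The list holds endocytic receptors, transporters and lysosomal proteases of the visceral endoderm, and also further genes, among them Cpn1, S100g, Cldn2 and Rhox5. Cubilin and amnionless, the paired receptor that takes up maternal proteins, had 8721, 8792 and 8633 reads of Cubn in ΔHx Mid, against 137, 357 and 419 in ΔHx Neg, and 3329, 3660 and 4510 of Amn, against 112, 235 and 209. The log2 changes were 4.99 ± 0.41 and 4.42 ± 0.40. Slc2a2, a glucose transporter of liver and gut, rose by 5.82 ± 0.84, with 353, 296 and 267 in ΔHx Mid and 1.12, 1.87 and 24.8 in ΔHx Neg. Ctsh, Lgmn, Ctsc and Ctsl, proteases of the lysosome, rose by 4.56, 3.15, 2.90 and 2.10. The 2 exceptions were Lrp2 and Fabp3. Lrp2, the partner receptor megalin, had 1084, 1168 and 1596 in ΔHx Mid and 683, 786 and 1196 in ΔHx Neg (log2 0.55 ± 0.28, adjusted p = 0.14), and passed the threshold in a fit of the 6 libraries alone (adjusted p = 0.043). Fabp3, a fatty acid carrier, had 27.9, 18.5 and 43.3 against 74.8, 61.6 and 69.2 (adjusted p = 0.13), and was called lower in that fit (adjusted p = 0.020).

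General lysosomal genes were higher as well. Of 29 tested, 24 rose and none fell, with a median of 0.89, and this list shares Ctsh, Lgmn, Ctsc, Ctsl and Ctsz with the visceral endoderm lists. Outside those, Ctsb rose by 1.93 ± 0.09, with 4264, 4070 and 4351 in ΔHx Mid and 1070, 1236 and 1027 in ΔHx Neg, and Cd63, a membrane protein of late endosomes, by 1.70 ± 0.14. Npc1, which exports cholesterol from the lysosome, rose by 1.36 ± 0.12. By contrast, genes of cholesterol synthesis stayed near the median of all genes: 3 of 24 rose, Stard4 and Ebp among them, none fell, and the list's median was -0.10. Of 25 genes for chaperones of the endoplasmic reticulum and its stress response, 7 rose and none fell, with a median of 0.25. The count was 4 without ΔHx Mid replicate 3, 3 without ΔHx Neg replicate 2 and 3 without ΔHx Neg replicate 3, and it was 2 at equal totals and 10 at equal totals without Rn45s.

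Among endoderm transcription factors, 10 of 19 rose. Hnf4a, the nuclear receptor that drives the liver and visceral endoderm program, had the largest log2 rise of all 14711 genes: 556, 582 and 834 in ΔHx Mid, against 1.12, 14.9 and 23.7 in ΔHx Neg (log2 6.10 ± 0.67, adjusted p = 1.5e-06). Sox17, needed for definitive endoderm and also made in the visceral layer, had 1188, 1227 and 1432 in ΔHx Mid, against 155, 132 and 165 in ΔHx Neg (log2 3.08 ± 0.18). Each ΔHx Mid library exceeded each ΔHx Neg library for both genes. Gata4 and Gata6, zinc finger factors of endoderm, did not pass the test. Gata4 had 906, 879 and 1146 against 647, 743 and 685 (log2 0.49 ± 0.32, adjusted p = 0.25), where only the fit of the 6 libraries alone made a call (adjusted p = 0.0078), and Gata6 had 209, 216 and 439 against 296, 211 and 219 (adjusted p = 0.77). Cdx2, a factor of posterior embryo and trophoblast, was called lower, and so was Nr1h5, a sterol receptor. Nr1h5 had no read in ΔHx Mid and 7 in ΔHx Neg. Either call ended when 1 of several libraries was left out. The change of Cdx2 was -1.16 to -0.915 with 1 library left out. Cdx2 had 247, 192 and 220 against 540, 441 and 386 (log2 -1.04 ± 0.37, adjusted p = 0.035), and was not called when replicate 2 (0.10) or 3 (0.076) of ΔHx Mid or replicate 1 (0.12) or 2 (0.072) of ΔHx Neg was left out. The call of Nr1h5 ended without any library but ΔHx Neg replicate 1.

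**Figure D2:**
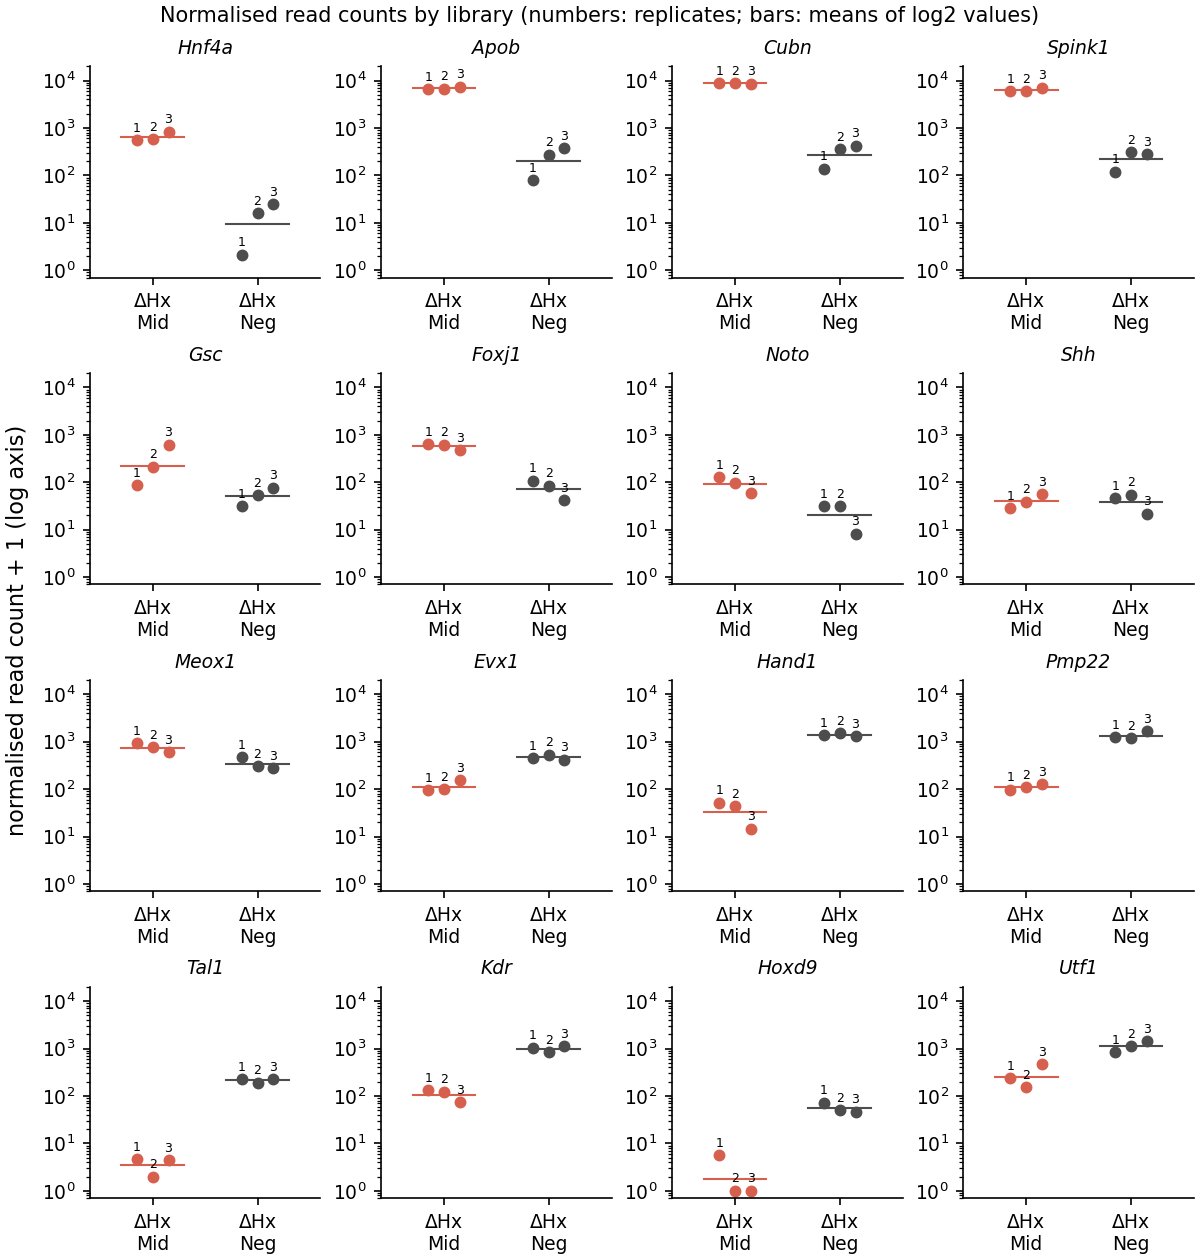
Normalised read count + 1 in each library (log axis) of 16 genes, ΔHx Mid on the left and ΔHx Neg on the right of each panel; digits are replicate numbers and bars the means of the log2 values. Endoderm genes such as Hnf4a, Apob and Cubn are far apart between the gates, Shh overlaps, and Hand1, Pmp22 and Tal1 are lower in every ΔHx Mid library.

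Definitive endoderm and gut genes, a list that also holds genes of the visceral layer, rose in 21 of 25 cases with none falling and a median of 2.15. Spink1, a protease inhibitor of gut, had 6043, 6052 and 7122 in ΔHx Mid, against 118, 303 and 283 in ΔHx Neg (log2 4.88 ± 0.38). Trh, a hormone precursor made in early definitive endoderm, had 5297, 4878 and 4908 against 558, 590 and 430 (log2 3.27 ± 0.16), and Nepn, a proteoglycan of the midgut, had 32.6, 49.7 and 58.2 against 2.23, 3.73 and 1.03. Cxcr4, the chemokine receptor used to sort definitive endoderm, was not called: it had 108, 178 and 211 against 94.9, 115 and 92.9 (log2 0.66 ± 0.31, adjusted p = 0.11), and it passed the threshold without ΔHx Mid replicate 1 (adjusted p = 0.033). Pyy, a further marker on the list, was too low to be tested, with at most 1.14 in ΔHx Mid and 3.1 in ΔHx Neg. Epcam, on the surface of epithelial cells, rose by 0.43 ± 0.12 (adjusted p = 0.0096), a call that ended without ΔHx Mid replicate 3, without ΔHx Neg replicate 1 and at equal totals.

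Genes of the anterior visceral endoderm and head organiser, which secrete inhibitors that pattern the head, rose in 12 of 15 cases and fell in none, with a median of 1.31. Cer1, which binds Nodal, BMP and Wnt ligands, had 1828, 2070 and 2830 in ΔHx Mid, against 401, 322 and 211 in ΔHx Neg (log2 2.87 ± 0.22, adjusted p = 1.4e-08). Lhx1, a homeobox factor of node and head organiser, rose by 1.80 ± 0.26, Hhex, an anterior homeobox repressor, by 1.66 ± 0.22, and Dkk1, a Wnt inhibitor, by 1.31 ± 0.21. ΔHx Mid replicate 3 was the highest library for these 4 genes. Gsc, a homeobox gene of the anterior streak, had 84.7, 213 and 623 in ΔHx Mid, against 30.1, 53.2 and 75.4 in ΔHx Neg (log2 2.16 ± 0.52), and its change was 1.42 without replicate 3 of ΔHx Mid (adjusted p = 0.026). Lefty1, a Nodal antagonist, had 79.1, 151 and 279 against 30.1, 55.1 and 56.8 (log2 1.69 ± 0.46, adjusted p = 0.0076), and was not called without that library (adjusted p = 0.057). Only 2 of the 15, Cer1 and the Wnt receptor Fzd5, passed the 2-fold limit. Otx2, a head factor present in both gates, had 755, 947 and 1484 against 738, 707 and 830 (adjusted p = 0.10), and was called without ΔHx Mid replicate 1 (adjusted p = 0.019) and with a replicate block (adjusted p = 0.049).

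The basement membrane list, which holds the main products of parietal endoderm, followed. Of 25 tested genes 13 rose and none fell, with a median of 0.80, only 3 passed the 2-fold limit, and 9 to 11 rose with 1 library left out. The 3 were Pga5, a pepsinogen, Srgn, a proteoglycan of secretory granules, and Pth1r, a parathyroid hormone receptor of parietal endoderm. Srgn had 194, 320 and 643 in ΔHx Mid, against 12.3, 28.0 and 42.3 in ΔHx Neg (log2 3.75 ± 0.65). The collagen IV chains Col4a1 and Col4a2 rose by 1.37 ± 0.36 and 1.65 ± 0.36. Lama1, the laminin chain typical of parietal endoderm, had 1141, 1010 and 1432 in ΔHx Mid and 580, 559 and 516 in ΔHx Neg, gates that did not overlap, yet its adjusted p was 0.062 (log2 1.10 ± 0.44). It was called at quantile normalisation (0.048), at equal totals without Rn45s (0.047), with a replicate block (0.049) and in the 6 libraries alone (8.1e-05). The SE of Lama1 holds the spread of all 18 libraries, and the WT Mid libraries differed widely for it, as given below. Sox7 and Thbd, further markers of these cells, had 53.0, 20.5 and 88.9 against 97.1, 112 and 147, and 41.9, 27.3 and 50.2 against 36.8, 16.8 and 10.3, and neither was called; Sox7 was called lower in the 6 libraries alone (0.036). Nid1, a basement membrane linker, rose by 1.45 ± 0.45 (adjusted p = 0.019) and was not called when replicate 2 (0.063) or replicate 3 (0.068) of ΔHx Mid, or replicate 2 of ΔHx Neg (0.063), was left out.

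Node and notochord genes moved in part. Of 23 tested, 12 rose and 2 fell, or 1 fell without ΔHx Mid replicate 3 or ΔHx Neg replicate 1, with a median of 0.97. Foxj1, the master factor of motile cilia, had 625, 617 and 471 in ΔHx Mid, against 107, 84.0 and 40.3 in ΔHx Neg (log2 2.97 ± 0.47, adjusted p = 9.1e-05). Chrd, which holds BMP ligands away from their receptors, had 708, 803 and 714 against 96.0, 163 and 64.0 (log2 2.87 ± 0.34), and Nodal, a ligand made at the node and elsewhere, had 352, 461 and 570 against 114, 117 and 152 (log2 1.83 ± 0.20). The libraries of both gates were apart for all 3. Noto, a node homeobox gene, had 127, 96.5 and 58.2 against 30.1, 30.8 and 7.23 (log2 2.17 ± 0.59, adjusted p = 0.0085), a call that ended without ΔHx Neg replicate 3 (log2 1.52, adjusted p = 0.063). Shh, the ligand of the notochord, did not differ detectably: it had 27.0, 38.0 and 54.7 in ΔHx Mid and 45.8, 54.1 and 20.6 in ΔHx Neg (log2 0.04 ± 0.62, adjusted p = 0.97). T, the streak and notochord factor Brachyury, had 3189, 3571 and 2241 against 2297, 2916 and 1534 (log2 0.44 ± 0.25, adjusted p = 0.19), and was called with a replicate block (adjusted p = 0.015). Nog, a second BMP antagonist of the node, had 52.1, 63.4 and 31.9 against 71.4, 71.8 and 44.4 (adjusted p = 0.57).

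Of 30 motile cilia genes tested, 23 rose and 1 fell, with a median of 1.82, and 11 passed the 2-fold limit. Their summed value, set by the most abundant members, was 4891 to 6145 in ΔHx Mid and 4471 to 5074 in ΔHx Neg, which overlapped. Dnah5, the outer arm dynein whose loss stops nodal flow, had 167, 92.6 and 86.7 in ΔHx Mid, against 22.3, 16.8 and 2.06 in ΔHx Neg (log2 3.36 ± 0.63, adjusted p = 4.4e-04). Dnah11, a dynein of left-right asymmetry, had 117, 171 and 179 against 21.2, 47.6 and 26.8 (log2 2.31 ± 0.29), and Drc1, of the regulatory complex of the axoneme, had 194, 131 and 114 against 38.0, 34.5 and 13.4 (log2 2.40 ± 0.34). ΔHx Neg replicate 3 was lowest for Dnah5, Drc1 and Foxj1, and no gate overlapped the other. Cfap126 and Tekt1, of the basal body and axoneme, rose by 3.67 ± 0.55 and 2.97 ± 0.42. The fall was that of Rfx4, with 4.65, 5.85 and 2.28 against 31.3, 33.6 and 41.3 (log2 -2.85 ± 0.65); it is a relative of the ciliary factors Rfx2 and Rfx3, which rose by 2.15 ± 0.35 and 0.65 ± 0.17.

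The ΔHx High gate shares its ΔHx Neg libraries with this comparison, so its values stand here only side by side. Shh had 3517, 2753 and 2847 in ΔHx High, and its log2 change over ΔHx Neg was 0.04 in ΔHx Mid and 6.31 in ΔHx High. Foxj1 and Noto changed by 2.97 and 2.17 over ΔHx Neg in ΔHx Mid, and by 5.97 and 6.66 in ΔHx High. Hnf4a and Cubn had the opposite order. Hnf4a had 28.1, 114 and 48.7 in ΔHx High, and its change over ΔHx Neg was 6.10 in ΔHx Mid and 2.55 in ΔHx High. Cubn changed by 4.99 in ΔHx Mid and by -0.22 in ΔHx High, where it had 156, 396 and 212. Of the 20 secreted genes, 20 were called higher in ΔHx Mid over ΔHx Neg and 8 in ΔHx High over ΔHx Neg, where 21.5% of all genes tested were called higher.

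**Figure D3:**
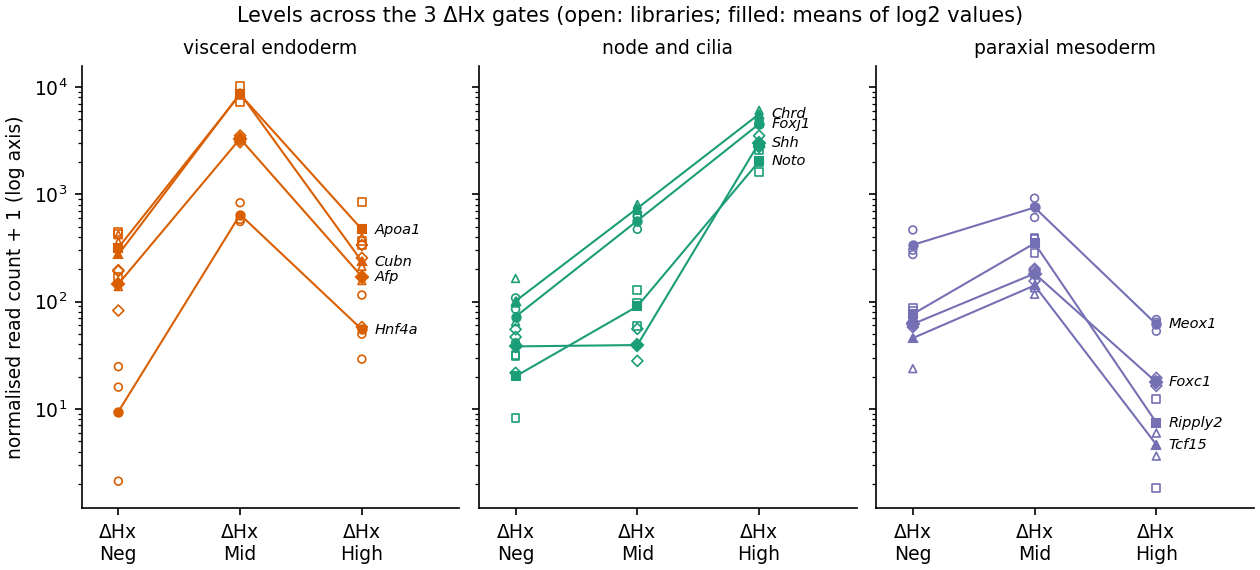
Normalised read count + 1 (log axis) across the 3 ΔHx gates in order of rising FoxA2 signal; open symbols are libraries and lines join the means of the log2 values. Visceral endoderm genes peak in ΔHx Mid, while Foxj1, Noto and Chrd climb to ΔHx High and Shh is level between ΔHx Neg and ΔHx Mid. The 4 paraxial mesoderm genes shown, Meox1, Ripply2, Tcf15 and Foxc1, also peak in ΔHx Mid. They are among the 10 called higher in a list of 33 that went both ways, with 5 called lower. The calls of Ripply2 and Tcf15 ended with some single libraries left out.

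Genes of lateral, cardiac and extra-embryonic mesoderm fell in 19 of 29 cases and rose in none, with a median of -2.13. Hand1, a basic helix-loop-helix factor of heart and allantois, had 51.2, 42.9 and 13.7 in ΔHx Mid, against 1370, 1498 and 1321 in ΔHx Neg (log2 -5.43 ± 0.74, adjusted p = 1.9e-05). Tbx4, a T-box gene of the allantois, had 1 read in the ΔHx Mid libraries together and 266 in the ΔHx Neg libraries, a ratio of ΔHx Neg to ΔHx Mid of 270 with an exact 95% counting interval of 48.0 to 10692. Its values were 0.930, 0 and 0 in ΔHx Mid and 122, 47.6 and 109 in ΔHx Neg. Foxf1, a forkhead gene of lateral plate, fell by 4.08, Col1a1, a fibrillar collagen, by 5.04, Bmp4, the ligand of posterior and extra-embryonic mesoderm, by 2.47, and Pmp22, a membrane protein, by 3.60. Bmp4 had 100, 67.3 and 73.0 in ΔHx Mid and 443, 443 and 441 in ΔHx Neg. Tbx3, a T-box gene also made in endoderm, was level, with 677, 697 and 653 against 606, 757 and 785 (adjusted p = 0.92), and Myl7, a cardiac myosin light chain, had 369, 580 and 413 against 345, 436 and 296 (adjusted p = 0.44).

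Nascent and paraxial mesoderm genes went both ways. Of 33 tested, 10 rose and 5 fell, with a median of 0.22, against 17.9% and 16.5% of all genes. The 10 rises were 6 without ΔHx Mid replicate 1 or 2 and 5 without ΔHx Neg replicate 3, and the 5 falls were 3 without ΔHx Mid replicate 3, ΔHx Neg replicate 1 or ΔHx Neg replicate 2. Meox1, Foxc1, Cited1 and Dll1 were called in every fit with 1 library left out. Meox1, a homeobox gene of somites, had 919, 764 and 608 in ΔHx Mid, against 464, 300 and 274 in ΔHx Neg (log2 1.16 ± 0.27, adjusted p = 0.0029), and Foxc1, a forkhead gene of paraxial mesoderm, had 154, 201 and 193 against 62.5, 56.9 and 63.0 (log2 1.56 ± 0.42). Cited1, a transcriptional co-regulator, had 2014, 2113 and 2068 against 642, 517 and 423 (log2 1.99 ± 0.21). These libraries did not overlap between gates. Ripply2, a repressor at somite borders, had 393, 382 and 282 against 81.5, 86.8 and 60.9, yet its call (log2 2.19 ± 0.74, adjusted p = 0.028) ended without any one of ΔHx Mid replicates 1 and 2 or of the 3 ΔHx Neg libraries, at adjusted p of 0.054 to 0.083, and at a pseudocount of 0.5 (0.063). Eomes, a T-box factor of streak and endoderm, rose by 1.34 ± 0.36 and was not called without ΔHx Mid replicate 3 (adjusted p = 0.055). The 5 falls were Evx1, Cdx1, Cdx2, Cdx4 and Wnt5a. Evx1, a homeobox gene of the posterior streak, had 94.0, 98.5 and 153 against 452, 528 and 420 (log2 -2.04 ± 0.41), and Cdx4, of the caudal family, had 13.0, 20.5 and 4.56 against 444, 234 and 383 (log2 -4.85 ± 0.58). Mesp1, of nascent mesoderm, overlapped between the gates, with 700, 885 and 621 against 966, 1125 and 824 (log2 -0.41 ± 0.47, adjusted p = 0.54), and was called in the 6 libraries alone (adjusted p = 0.049).

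Blood and endothelial genes fell in 17 of 24 cases and rose in 1, with a median of -3.08. Tal1, the factor that founds the blood lineage, had 3.72, 0.975 and 3.42 in ΔHx Mid, against 228, 189 and 224 in ΔHx Neg (log2 -5.95 ± 0.63, adjusted p = 1.0e-06). Kdr, the VEGF receptor of vessel precursors, had 131, 123 and 74.1 against 1036, 835 and 1112 (log2 -3.21 ± 0.54), and Etv2, the Ets factor upstream of both lineages, had 30.7, 17.6 and 22.8 against 284, 266 and 268 (log2 -3.50 ± 0.44). The gates were far apart for all 3. Hbb-bh1, an embryonic globin, had 43.7, 31.2 and 2.28 against 761, 556 and 870 (log2 -5.42 ± 0.85). It has close relatives in its cluster, and its count holds only reads that aligned to a unique place. Another embryonic globin, Hbb-y, had no read in ΔHx Mid and 67 in ΔHx Neg, at least 7.47-fold lower in ΔHx Mid with a floor of 3 reads in each library. Gata1, an erythroid factor, had 81.0, 130 and 179 against 136, 68.1 and 164 (adjusted p = 0.89), and the rise was that of Ramp2, an adrenomedullin receptor subunit (log2 0.90 ± 0.23).

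Hox genes, which mark position along the body axis, were lower or not called. Of 22 tested, 12 fell and none rose, with a median of -1.82 and 5 past the 2-fold limit. With 1 library left out 9 to 11 fell. Hoxd9 had 4.65, 0 and 0 in ΔHx Mid, against 71.4, 48.5 and 45.4 in ΔHx Neg (log2 -4.95 ± 0.79), and Hoxb6 had 8.37, 6.83 and 12.5 against 89.3, 85.8 and 90.8 (log2 -3.17 ± 0.50). The 2 gates were separate for both. Hoxb1, the most anterior gene of its cluster, was level, with 1765, 1562 and 1063 in ΔHx Mid and 1617, 1526 and 1201 in ΔHx Neg (log2 -0.01 ± 0.24, adjusted p = 0.99).

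Among epiblast and pluripotency genes 11 of 27 fell and 1 rose, with a median of -0.58. Pou5f1, the core factor Oct4, had 1347, 1091 and 1189 in ΔHx Mid, against 2325, 2422 and 2116 in ΔHx Neg (log2 -0.92 ± 0.11, adjusted p = 2.7e-06). Utf1, a chromatin factor of the epiblast, had 234, 151 and 468 against 847, 1115 and 1433 (log2 -2.11 ± 0.39), and Dnmt3b, the DNA methyltransferase of epiblast, had 6998, 7125 and 7776 against 15045, 17829 and 16913 (log2 -1.18 ± 0.10). For all 3 every ΔHx Mid library was below every ΔHx Neg library, while the factors were still well detected in ΔHx Mid. Nanog fell by 0.91 and was not called without ΔHx Mid replicate 2 (adjusted p = 0.055). The gene that rose was Trap1a, an X-linked antigen gene, with 904, 866 and 1034 against 54.7, 87.7 and 99.1 (log2 3.56 ± 0.33). Neural genes gave 6 falls and 1 rise in 23, among them Irx3 (log2 -1.91 ± 0.22) and Lhx5 (log2 -4.47 ± 0.76), both homeobox genes. Of 9 primordial germ cell genes 4 fell and none rose; Tfap2c, a factor of germ cells and trophoblast, had 11.2, 28.3 and 3.42 against 156, 184 and 212.

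Markers of tissues that the dissection should remove or that surround the embryo were checked. Of 18 trophoblast genes 5 rose and 7 fell, and among them Krt7, a keratin of the gut list, and Eomes rose and Hand1 and Tfap2c fell. The 5 rises were 2 without ΔHx Mid replicate 3 and 3 without ΔHx Neg replicate 2, and the 7 falls were 3 without ΔHx Neg replicate 2 and 4 without ΔHx Neg replicate 3. The summed value of the 21 listed genes was 2832 to 3716 in ΔHx Mid and 3794 to 4020 in ΔHx Neg. Tpbpa and Prl2c2, of the placenta, reached at most 2.28 and 0 in ΔHx Mid. Of the list for white blood cells and decidua 9 genes passed the filter; 1 rose (Bmp2) and 2 fell (Hand2 and Pgr), all of them made in other tissues too, and Bmp2 was not called without ΔHx Neg replicate 1 (adjusted p = 0.053). The summed value of the 16 listed genes was 588 to 734 in ΔHx Mid and 437 to 542 in ΔHx Neg, and Ptprc, which all white blood cells make, had at most 2.93 in ΔHx Mid and 0 in ΔHx Neg. The part of these cells in the results above was not tested.

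Epithelial genes rose in 25 of 30 cases and fell in none, with a median of 1.63. Cldn6, a tight junction claudin of embryonic epithelia, had 7938, 8197 and 9762 in ΔHx Mid, against 1419, 1736 and 1561 in ΔHx Neg (log2 2.46 ± 0.14, adjusted p = 4.8e-10). Krt18, a simple keratin, had 7810, 8476 and 10819 against 2075, 2263 and 2156 (log2 2.05 ± 0.13), and Cdh1, E-cadherin, had 4804, 4867 and 5397 against 2562, 2287 and 2497 (log2 1.04 ± 0.11). Every ΔHx Mid library exceeded every ΔHx Neg library for these genes. Of 24 mesenchymal genes 8 fell and 1 rose, with a median of -0.59. Vim, the intermediate filament vimentin, had 1239, 1191 and 1308 against 2882, 2599 and 2524 (log2 -1.10 ± 0.13), and Snai2, a repressor of E-cadherin, had 5.58, 12.7 and 9.12 against 81.5, 70.0 and 67.1. Fn1, fibronectin, had 13009, 12397 and 9981 against 12576, 14069 and 10807 and was not called.

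**Figure D4:**
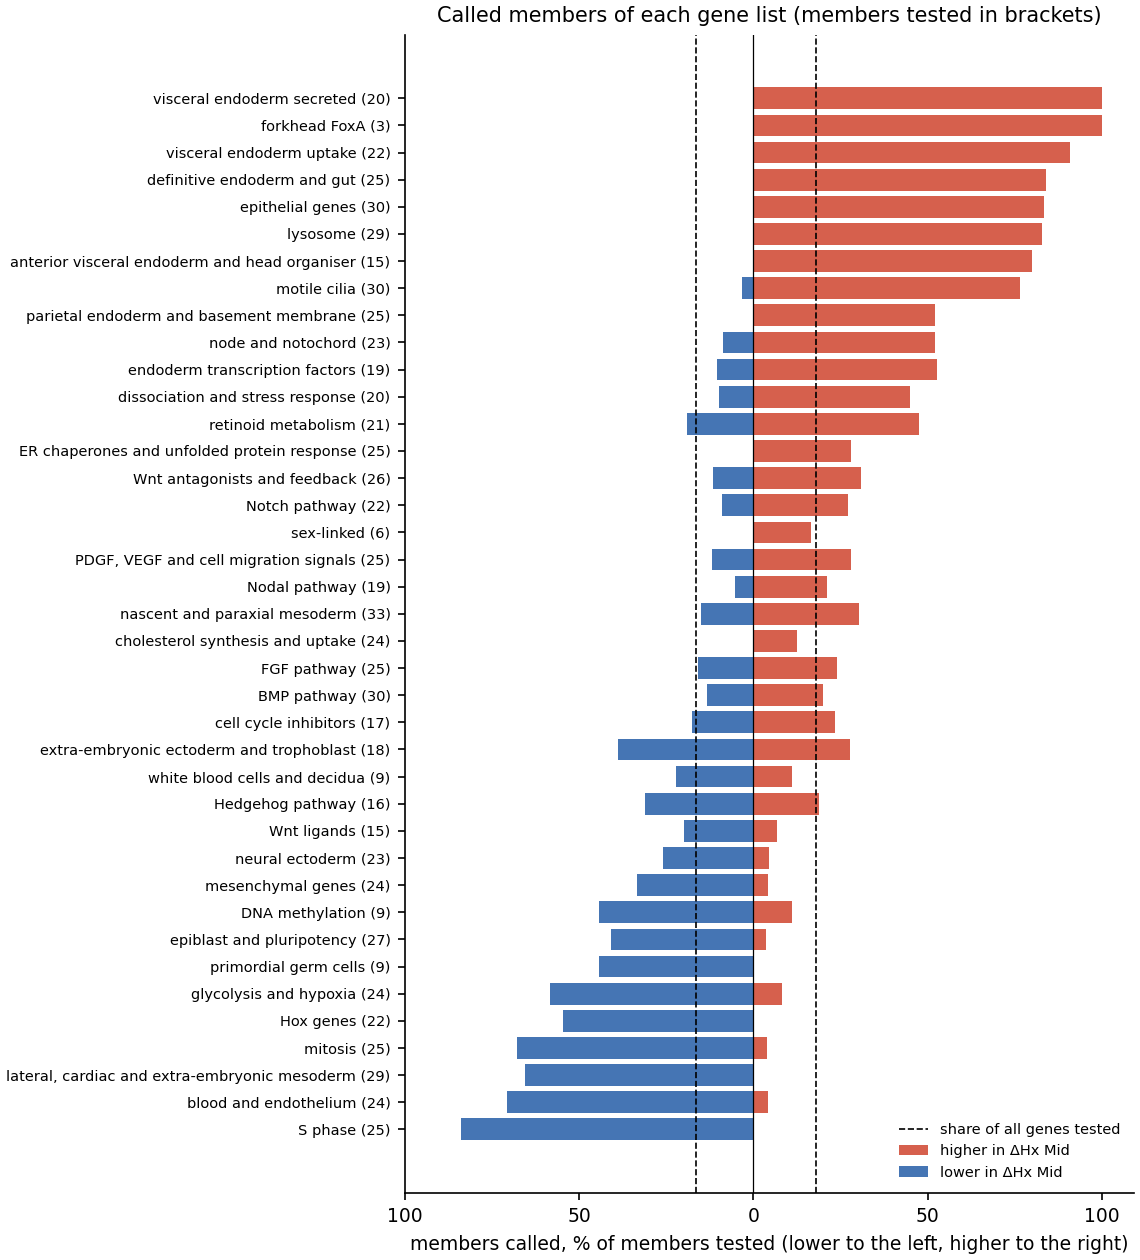
Members called in each of the 39 gene lists as a percentage of members tested, higher in ΔHx Mid to the right and lower in ΔHx Mid to the left; dashed lines mark 17.9% and 16.5%, the shares over all genes tested. The visceral endoderm lists lie at the top and the S phase, blood and lateral mesoderm lists at the bottom.

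The counts of the signalling lists stand against 17.9% of all genes called higher and 16.5% called lower. In the Nodal list 4 of 19 rose (Cer1, Nodal, Lefty1 and Furin) and 1 fell, a call of Foxh1 that ended without ΔHx Mid replicate 3 or ΔHx Neg replicate 1; without ΔHx Neg replicate 3 the falls were 2. In the FGF list 6 of 25 rose and 4 fell, or 2 without ΔHx Mid replicate 3: the co-receptor Klb and the receptor Fgfr4 had 145, 129 and 184, and 198, 262 and 374 in ΔHx Mid, against 3.35, 4.67 and 2.06, and 8.93, 30.8 and 7.23 in ΔHx Neg, whereas Fgfr1, the receptor of epiblast and mesoderm, fell by 0.65 ± 0.11 and Fgfr2 also fell. Klb and Fgfr4 form the FGF receptor of liver cells. In the Hedgehog list 3 of 16 rose and 5 fell: Ihh, the ligand of visceral endoderm, had 130, 112 and 114 against 15.6, 18.7 and 24.8 (log2 2.55 ± 0.35), Gli1, a target gene of the pathway, had 172, 142 and 166 against 99.3, 70.0 and 78.5 (log2 0.96 ± 0.23), and the co-receptor Gas1 and the factor Gli2 fell by 0.99 and 1.37. For Wnt, 8 of 26 antagonists and feedback genes rose and 3 fell, or 1 fell without ΔHx Neg replicate 1. Rnf43, a ligase that removes Wnt receptors, rose by 2.49 ± 0.38, and Sfrp2, a secreted antagonist, fell by 1.79. Of 15 Wnt ligands 1 rose and 3 fell, and each of the 4 calls ended without at least 1 library; without ΔHx Neg replicate 1 none of the falls was called. In the BMP list 6 of 30 rose, or 3 without ΔHx Neg replicate 1, and 4 fell, or 2 without ΔHx Mid replicate 2. In the Notch list 6 of 22 rose. Its 2 falls, of Dll4 and Hey2, were both lost without ΔHx Neg replicate 2 and 1 of them without each of the other libraries but ΔHx Mid replicate 1. Notch1, the receptor, rose by 1.29 ± 0.20.

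Retinoid genes had 10 rises and 4 falls among 21, with a median of 0.54. Besides Ttr and Rbp4, the retinol carriers, those that rose were Bco1, which cleaves β-carotene (log2 4.64 ± 0.75), Stra6, the receptor for Rbp4 (log2 1.86 ± 0.32), and Cyp26a1, which degrades retinoic acid (log2 1.65 ± 0.22). Stra6 had 1740, 1503 and 975 in ΔHx Mid, against 433, 352 and 349 in ΔHx Neg. The 4 falls were Crabp1, Crabp2, Rarb and Rarg. Crabp2, which hands retinoic acid to its receptors, had 267, 200 and 157 against 957, 797 and 886 (log2 -2.10 ± 0.33). Retinoid receptor genes went both ways: Rarb and Rarg fell by 1.41 and 1.15, and Rara and Rxra rose by 0.51 and 0.86. Rxra was called with replicate 1 of ΔHx Mid left out and not with any other of the 6 libraries left out. The PDGF, VEGF and migration list had 7 rises and 3 falls in 25. Cxcl12, a chemokine ligand, had 103, 115 and 138 against 900, 815 and 1096 (log2 -2.97 ± 0.35), and Apela, a ligand of the apelin receptor, rose by 1.86 ± 0.27.

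Cell cycle and glycolysis genes were lower by small amounts. Of 25 S phase genes 21 fell and none rose, with a median of -0.55, and of 25 mitosis genes 17 fell and 1 rose, with a median of -0.45; none of them passed the 2-fold limit. With 1 library left out the falls numbered 16 to 20 in the S phase list and 12 to 17 in the mitosis list. Rrm2, the ribonucleotide reductase subunit of S phase, had 5135, 4484 and 3908 in ΔHx Mid, against 8684, 8364 and 8428 in ΔHx Neg (log2 -0.92 ± 0.11), and Mcm2, a replicative helicase subunit, had 5518, 4888 and 3942 against 8718, 8684 and 7888 (log2 -0.83 ± 0.13). Both groups of libraries were apart. The rise was that of Mki67, with a change of 0.61 ± 0.21 (adjusted p = 0.032), which was not called without ΔHx Mid replicate 3 (0.15), ΔHx Neg replicate 1 (0.15) or ΔHx Neg replicate 2 (0.072), or with no filter on low values (0.051). Of 24 genes of glycolysis and hypoxia 14 fell and 2 rose, or 1 rose without ΔHx Mid replicate 3 or ΔHx Neg replicate 2. Ldha, lactate dehydrogenase, fell by 0.53 ± 0.08, Slc16a3, a lactate exporter, by 1.27 ± 0.17, and Pfkp, a phosphofructokinase, by 1.65 ± 0.29. Slc2a3, a high-affinity glucose transporter, went the other way, with 39878, 38419 and 39724 in ΔHx Mid, against 11654, 10891 and 11623 in ΔHx Neg (log2 1.79 ± 0.20, adjusted p = 2.2e-06). Slc16a1, a lactate and pyruvate transporter from the uptake list, also rose, with 27013, 25810 and 26444 against 6150, 6108 and 5654.

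Of 17 inhibitors and other regulators of the cell cycle 4 rose and 3 fell, among them Cdkn1a and Cdkn1b higher and the cyclins Ccnd2 and Ccnd3 lower. Of 9 genes of DNA methylation 1 rose and 4 fell, with a median of -0.33.

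Immediate early genes, which dissociation can induce, were higher in part. Of 20 genes of that list 9 rose and 2 fell, or 5 rose without ΔHx Neg replicate 1, and their summed value was 12083 to 16011 in ΔHx Mid and 10433 to 12477 in ΔHx Neg. Fosb had 146, 191 and 286 against 26.8, 21.5 and 65.0 (log2 2.54 ± 0.44). The part of dissociation in the results was not tested. Of 6 sex-linked genes 1 rose, Tsix (log2 2.21 ± 0.73, adjusted p = 0.025), whose reads cannot be told from those of Xist on the other strand. It was called with ΔHx Neg replicate 3 left out (0.012) and not with any other of the 6 libraries left out (0.051 to 0.12). Xist, the RNA of the inactive X chromosome, had 2614, 2357 and 3305 in ΔHx Mid and 1105, 1074 and 2062 in ΔHx Neg (log2 1.02 ± 0.41, adjusted p = 0.061), and it was called without ΔHx Neg replicate 3 (0.033), in the 6 libraries alone (0.0033) and with a replicate block (2.0e-04). The Y-linked gene Ddx3y had 543, 599 and 504 in ΔHx Mid and 526, 563 and 634 in ΔHx Neg, and the gates overlapped.

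The 12 largest rises, taken from called genes that averaged 50 or more in ΔHx Mid and whose gates did not overlap, were Hnf4a, Slc2a2, Ambp, Enpep, Apoa4, Timd2, Akr1c12, Fgb, Spp2, Akr1c13, Golt1a and Klb. Genes with predicted, clone or Riken names were left out of this ranking and of that of the falls. Ambp, the precursor of a plasma protease inhibitor, had 167, 172 and 176 in ΔHx Mid, against 3.35, 2.80 and 1.03 in ΔHx Neg (log2 5.74 ± 0.51, adjusted p = 9.8e-08). Enpep, an aminopeptidase of brush borders, and Spp2, a secreted phosphoprotein, rose by 5.66 ± 0.69 and 5.34 ± 0.46. The aldo-keto reductases Akr1c12 and Akr1c13, near-identical neighbours, rose by 5.43 and 5.19. Reads that did not align to a unique place are in no gene's count, so these rises rest only on reads that did. The 12 largest falls were Tbx4, Tal1, Tdo2, Gdf6, Hand1, Hbb-bh1, Klf1, Col1a1, Tek, Hoxd9, Lama4 and Cdx4. Gdf6, a BMP-type ligand, had no read in ΔHx Mid and 63.6, 49.5 and 43.4 in ΔHx Neg, at least 17.1-fold lower in ΔHx Mid with the same floor. Tdo2, tryptophan dioxygenase, had 1 read in ΔHx Mid and 228 in ΔHx Neg, a ratio of ΔHx Neg to ΔHx Mid of 231 with a counting interval of 41.1 to 9171. Lama4, a laminin chain of vessels, had 10.2, 20.5 and 0 against 160, 165 and 258 (log2 -4.94 ± 0.75), and Tek, the angiopoietin receptor, had 0, 8.78 and 2.28 against 87.1, 67.2 and 188.

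Some of the rising genes lie side by side in the genome (mm10). Runs of at least 3 adjacent tested genes that each rose by over 2 on the log2 scale numbered 9, and they were chosen after their values were seen. On chr9:46228580-46271919 lie Apoa1, Apoc3, Apoa4 and Apoa5, which rose by 4.75, 4.51, 5.66 and 3.50. On chr3:83007724-83049863 lie the 3 fibrinogen chains Fgg, Fga and Fgb, which rose by 3.97, 4.76 and 5.35. Fga had 135, 90.7 and 60.4 in ΔHx Mid, against 2.23, 0.933 and 5.16 in ΔHx Neg. The run of 5 genes on chrX:73033981-73292976 holds Xlr3a, which rose by 3.48 ± 0.25, and further members of the Xlr family, near-identical copies between which reads may be split.

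The same gates of WT embryos share no library with this comparison, so the difference between the genotypes could be tested. In WT 2567 genes were higher and 2267 lower in Mid than in Neg, and 3647 genes were called in the same direction in both genotypes. The test of the difference between the ΔHx step and the WT step called 1 gene of 14711 (0.0068%), lower in ΔHx. At an unadjusted p under 0.05 there were 636 genes, 4.32% of those tested, of which 397 had the lower step in ΔHx. edgeR on the recovered reads called 0 and had 635 genes at an unadjusted p under 0.05, and DESeq2 called 19, all lower. The gene was Slc6a2, the noradrenaline transporter, with 1.86, 0 and 1.14 in ΔHx Mid and 2.23, 3.73 and 3.10 in ΔHx Neg, against 482, 165 and 160 in WT Mid and 2.46, 4.06 and 0 in WT Neg. Its step was -1.12 in ΔHx and 6.50 in WT, a difference of -7.62 ± 1.07 (adjusted p = 0.013). The call ended at a pseudocount of 0.5 (0.13), at a filter of 50 (0.099), in edgeR (0.12), with 0 genes called in each, and without ΔHx Mid replicate 2 (0.065), ΔHx Neg replicate 2 (0.073), ΔHx Neg replicate 3 (0.063) or WT Neg replicate 3 (0.052), again with 0 genes called. With a replicate block 1 gene had a higher and 6 a lower step in ΔHx. Leaving out 1 WT library raised the count of lower steps to 24 without WT Mid replicate 2, to 9 without WT Mid replicate 1 and to 5 without WT Neg replicate 1.

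Visceral endoderm genes had median steps of 4.58 in ΔHx and 4.36 in WT for the secreted list and 3.14 and 3.27 for the uptake list. The smallest adjusted p of the difference was 0.90 for the secreted list and 0.66 for the uptake list, which does not show that the steps are equal. The basement membrane list had a median step of 0.80 in ΔHx and 2.40 in WT, and 24 of its 25 members had the lower step in ΔHx, against 7520 of all 14711 genes, though none was called (smallest adjusted p = 0.17). Such a tally was not particular to it: 24 of 25 genes of the endoplasmic reticulum list, 23 of 29 of the lysosome list and 22 of 27 of the epiblast list also had the lower step in ΔHx. The median difference of steps in those lists was -0.25, -0.18 and -0.23, against -1.51 in the basement membrane list. The WT Mid libraries differed among themselves here: Lama1 had 1141, 1010 and 1432 in ΔHx Mid and 580, 559 and 516 in ΔHx Neg, against 30072, 4065 and 7011 in WT Mid and 658, 504 and 664 in WT Neg. Nid1, which links laminin to collagen IV, had 303, 496 and 512 in ΔHx Mid and 154, 133 and 182 in ΔHx Neg, against 16229, 2245 and 3437 in WT Mid and 153, 186 and 188 in WT Neg (difference of steps -3.38, adjusted p = 0.17). Replicate 1 was by far the highest WT Mid library for both, and its part in this difference was not tested. Shh had a step of 0.04 in ΔHx and 4.93 in WT (difference -4.89, adjusted p = 0.17). Its level in Mid was 27.0, 38.0 and 54.7 in ΔHx and 30.1, 44.9 and 142 in WT, and its level in Neg was 45.8, 54.1 and 20.6 in ΔHx and 6.16, 0 and 0 in WT, so the 2 genotypes stood apart in the Neg gate and overlapped in the Mid gate.

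**Figure D5:**
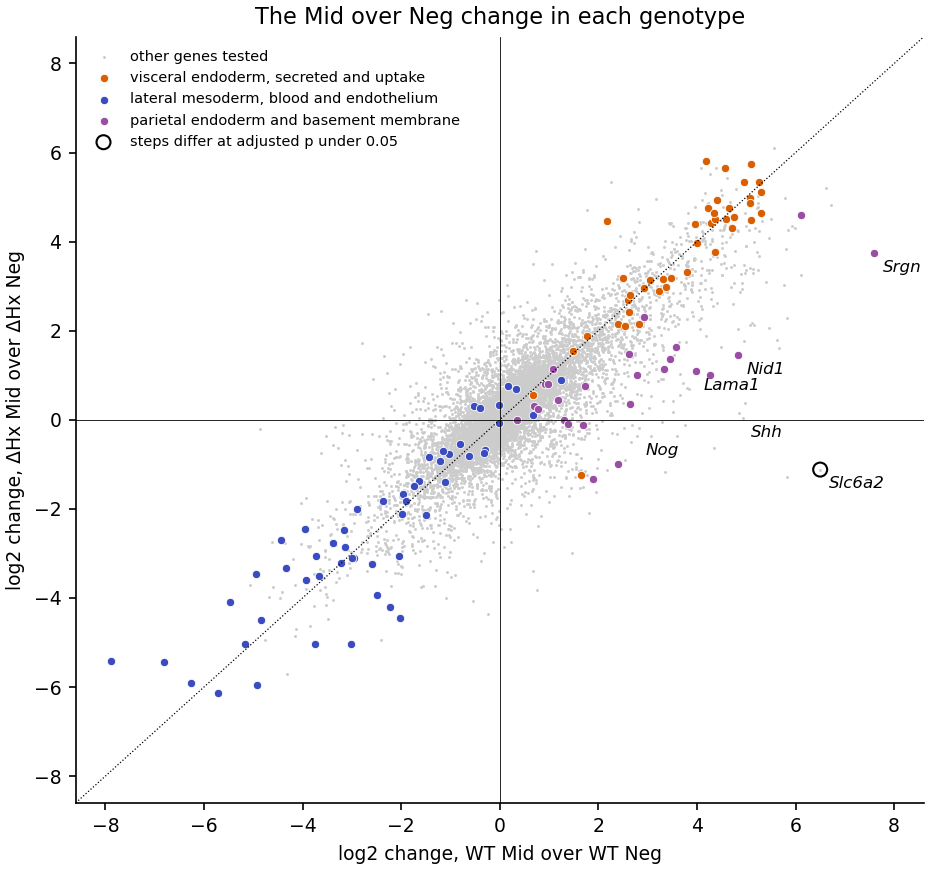
The log2 change of each gene tested between Mid and Neg cells, in ΔHx (y axis) and in WT (x axis); the dotted line marks equal changes and the ring the 1 gene whose changes differed at an adjusted p under 0.05. Visceral endoderm genes (orange) lie along the line at the upper right, 24 of 25 basement membrane genes (purple) lie below it, and Slc6a2 is at 6.50 in WT and -1.12 in ΔHx.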

How the data were processed

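RNA of sorted cells was sequenced as single-end reads of 75 bases, per the labels' protocols. The submitters' processing notes name STAR 2.5.2a, HTSeq 0.6.1, DESeq, DESeq2 and the mouse build mm10; the counter's strand setting is not known here. The deposited table holds, for each gene and library, a normalised signal: the gene's read count divided by 1 factor per library. Whole reads could be recovered for 440964 of 440964 values (tolerance 1e-06), and the 5 counter lines were left out; in the 6 libraries 7.40% to 12.1% of reads fell in no feature, 0.538% to 0.672% were ambiguous and 38.5% to 41.3% did not align to a unique place, as shares of the column totals.

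Values were tested as log2(value + 1) with limma 3.58.1 (R 4.3.3), with a trend, 6 group means over 18 libraries and 12 residual degrees of freedom, in the 14711 genes that reached 10 in 3 or more libraries. The fit over all groups shares 1 estimate of the spread. Alternatives used edgeR 4.0.16 and DESeq2 1.42.0 on the recovered reads, other pseudocounts, filters and scalings, a replicate block, and each library left out. The fit was tested on simulated data. Exact 95% intervals and the floor of 3 reads per library cover counting error only. Normalised values are not divided by gene length, so levels of different genes are not compared. Without strand, reads from a gene and an antisense partner over it are not separable.

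The 39 gene lists and the comparison were chosen with earlier results of these data known. Named genes are the 12 largest rises and falls, members of the lists, with values by library mainly for the largest changes and for defining markers, and genes called in the test between genotypes; the neighbouring gene runs, and list members named as exceptions, were chosen after their values were seen. Promoter windows and gene positions come from RefSeq and GENCODE annotation of the mm10 assembly; 14268 tested genes had a position. Results for some list members are not reported here.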

Additional observations from a re-analysis of the deposited data

Results flagged for a closer look

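The step from Neg to Mid differed between genotypes for 1 gene, Slc6a2, by a test of the difference itself: its log2 change was -1.12 in ΔHx and 6.50 in WT, a difference of -7.62 ± 1.07 (limma, adjusted p = 0.013). It was at or near 0 in the ΔHx libraries and in WT Neg, and at 160 to 482 in the 3 WT Mid libraries. In limma the call ended at a pseudocount of 0.5 (0.13) and at a filter of 50 (0.099), and edgeR made no call (0.12). It also ended without ΔHx Mid replicate 2, ΔHx Neg replicate 2 or 3, or WT Neg replicate 3 (0.052 to 0.073). As for Nr1h5 below, the allele and the line cannot be told apart.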

How the results depend on the processing

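Over the 19 alternatives and left-out libraries that bear on them, the counts of genes higher and lower in ΔHx Mid stayed within 1.5 times 2632 and 2421, except against a 2-fold limit (465 and 84). With 1 library left out 2083 to 2437 were higher and 1765 to 2278 lower; quantile normalisation gave 2177 and 2533, equal totals 2091 and 2279, and equal totals without Rn45s 2972 and 1909, where the median of all genes moved to -0.077, -0.091 and 0.071. edgeR called 2711 higher and 2258 lower, and DESeq2 2859 and 2568. Of the 160 genes named and called, 143 were called in each alternative but the 2-fold limit, which 92 passed.

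For the difference between the ΔHx and WT steps, lower steps numbered 0 at a pseudocount of 0.5, 2 at a pseudocount of 5, 0 at a filter of 50, 0 in edgeR and 19 in DESeq2, and 0 to 24 with 1 library left out. The cause was not tested.

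Replicate numbers gave correlations of 0.0376 to 0.101 between same-numbered ΔHx libraries and of 0.0485 to 0.160 between same-numbered WT libraries. Pairs of unlike number gave -0.0835 to -0.00506 in ΔHx and -0.0923 to 0.0327 in WT. Of the Mid libraries, 6 of 6 correlated best with the Neg library of their own number. The labels do not say whether equal numbers share a sort, and the main fit has no replicate block. With a replicate block 2953 genes were higher and 2728 lower in ΔHx Mid, and for the difference of steps 1 was higher and 6 lower.

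Sign changed only in genes that were not called. At quantile normalisation the log2 change was 0.0776 for Fn1, -0.139 for Gata1, 0.0859 for Hoxb1 and -0.267 for Shh. At equal totals it was -0.0465 for Shh, and at equal totals without Rn45s 0.0101 for Ddx3y, 0.0693 for Hoxb1 and 0.000637 for Tbx3. edgeR gave 0.0282 for Hoxb1 and -0.0273 for Shh, and DESeq2 0.0158 and -0.0134. With 1 library left out Ddx3y ranged from -0.129 to 0.00914, Fn1 from -0.183 to 0.0331, Gata1 from -0.274 to 0.402, Gata6 from -0.170 to 0.363, Hoxb1 from -0.157 to 0.209 and Shh from -0.368 to 0.306. At 13742922 to 16008636 reads in genes, a library with no read of a gene allows up to 3 reads.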

Other observations

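Nr1h5, chosen after its values were seen, stood apart between genotypes in both gates, which the step between gates does not show. It was listed at 0 in the 3 ΔHx Mid libraries and had 1.12, 1.87 and 4.13 in ΔHx Neg, against 653, 151 and 153 in WT Mid and 525, 140 and 256 in WT Neg. That difference was not tested, and the labels do not say whether the 2 alleles were kept on backgrounds of the same make-up, so the allele and the line cannot be told apart.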
